A study of Mus musculus with 23 samples.

Results

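The insulin-like growth factor genes measured here were the ligands Igf1 and Igf2, the receptor Igf1r, and the binding proteins Igfbp2, Igfbp3, Igfbp4, Igfbp5, Igfbp6 and Igfbp7. They were taken as all probe sets annotated to these symbols alone, which gave 9 of the 18193 genes that could be tested and 26 of the 45101 probe sets on the array. Igf1r had 5 probe sets, Igfbp4 had 6, Igf1 had 4 and Igfbp7 had 3. Igf2, Igfbp3 and Igfbp5 had 2 each, and Igfbp2 and Igfbp6 had 1 each.

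Insulin-like growth factors are secreted peptides that bind the receptor tyrosine kinase IGF1R and signal through insulin receptor substrates to the PI3K-AKT and MAPK pathways. The binding proteins hold the ligands in the extracellular space, so that they prolong the life of a ligand and limit its access to the receptor, and proteases that cut the binding proteins release the ligand again. Fibroblasts are a known source of both ligands and several binding proteins, and the heart muscle cell is a known target of IGF1.

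The study used transcriptome induced phenotype remodeling (TIPeR), in which the poly-A RNA of one cell type is delivered into cells of another with a lipid reagent. Each of the 23 samples was 1 mouse cell, taken by glass micropipette from a culture in DMEM with serum, amplified as antisense RNA (aRNA) and hybridised to 1 Affymetrix mouse array. The label fibroTIPeR marked 5 fibroblasts that received cardiomyocyte RNA, and fibroControl marked 3 fibroblasts that received fibroblast RNA. The groups fibroblast (3 cells) and cardiomyocyte (4 cells) had no transfection. The label astroTIPeR marked 6 astrocytes that received cardiomyocyte RNA, and astroControl marked 2 mock-transfected astrocytes, so that the astrocyte control received no foreign RNA where the fibroblast control did. Delivered RNA still inside a transfected cell and RNA the cell made itself cannot be told apart on these arrays. The labels name no strain, age, animal or separate culture, so n counts cells, and a p-value sets a difference against cell-to-cell spread alone, part of which may come from amplification and hybridisation.

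Levels are log2 values after quantile normalization over all 23 arrays, and 1 log2 unit is a 2-fold change. The 15 fibroblast and cardiomyocyte arrays and the 8 astrocyte arrays formed 2 sets with deposited medians of 5.05 to 5.58 and 4.28 to 4.56, so that array set and cell type cannot be told apart. No levels were tested across the sets, and the only contrast that spans them is a difference of effects measured within each. The 12 cardiomyocyte markers averaged 9.15 in cardiomyocytes and 4.66 to 5.55 in the other groups. The 10 fibroblast markers averaged 8.45 to 9.33 in the 3 fibroblast groups, 6.32 in cardiomyocytes, 7.58 in astroTIPeR and 7.41 in astroControl cells. Not every fibroblast marker followed that average. Dcn was higher in cardiomyocytes than in fibroblasts, at 10.17 and 8.85, and so was Thy1, at 8.02 and 6.28. The 9 astrocyte markers did not mark the astrocytes, at 7.39 in astroTIPeR and 6.73 in astroControl cells against 7.76 in cardiomyocytes, and Gfap averaged 4.69, 5.32 and 6.13 in these 3 groups. The mean of the 3 probe sets for 18S ribosomal RNA was 11.6 ± 0.4 (SD, n = 3) in fibroControl cells and 7.45 ± 0.53 (SD, n = 3) in fibroblasts, and it ran from 11.03 to 13.48 in fibroTIPeR cells 1 to 3 against 7.80 and 7.88 in cells 4 and 5. Precision is limited by how few arrays each group has.

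On the probe sets used in the tests, Igfbp4 and Igf2 had their highest group means in fibroControl cells and the largest differences from untransfected fibroblasts, and their promoters are shown for that reason. Each sequence is the 150 bases before a RefSeq start site (build GRCm38.p6), read 5′ to 3′ on the strand of the gene. The capitals mark matches on either strand to 3 motifs searched, and no matches overlap. The first motif is TATAAA, the core of the TATA box. The second is the GC box, searched as GGGCGG. The last, named for its letters, is CCAAT.
Igfbp4: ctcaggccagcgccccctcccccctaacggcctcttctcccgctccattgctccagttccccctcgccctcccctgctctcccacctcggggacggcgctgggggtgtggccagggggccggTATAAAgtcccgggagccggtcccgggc
Igf2 start site 1: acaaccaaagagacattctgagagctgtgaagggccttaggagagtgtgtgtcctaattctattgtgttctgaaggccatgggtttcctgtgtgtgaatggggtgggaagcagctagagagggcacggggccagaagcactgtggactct
Igf2 start site 2: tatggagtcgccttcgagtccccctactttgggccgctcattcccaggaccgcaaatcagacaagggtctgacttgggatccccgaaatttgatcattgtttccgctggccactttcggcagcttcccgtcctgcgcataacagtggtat
Igf2 start site 3: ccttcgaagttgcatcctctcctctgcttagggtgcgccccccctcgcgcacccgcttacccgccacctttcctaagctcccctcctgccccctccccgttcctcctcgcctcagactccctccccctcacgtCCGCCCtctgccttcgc
Igf2 start site 4: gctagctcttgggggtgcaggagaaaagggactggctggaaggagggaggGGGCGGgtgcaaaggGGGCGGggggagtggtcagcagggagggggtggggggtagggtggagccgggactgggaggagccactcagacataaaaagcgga
The Igfbp4 sequence lies at chr11:99041094-99041243 on the plus strand, within the annotated extent of the gene, and has a GC content of 73.3%. Its only match was TATAAA on the gene's strand, 28 to 23 bases before the start, and 7.57% of the 32851 promoter windows of this length held TATAAA somewhere. The Igf2 start sites are on the minus strand, and their windows are chr7:142666817-142666966 for site 1, chr7:142661272-142661421 for site 2, chr7:142658805-142658954 for site 3 and chr7:142657497-142657646 for site 4. Sites 2 to 4 lie inside the extent of the gene. GGGCGG was matched 1 time at site 3, on the opposite strand, and 2 times at site 4, against 28.6% of windows with a match. Sites 1 and 2 held none of the 3 motifs, and 24.5% of all windows held CCAAT. The arrays do not tell the start sites apart.

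Igf1, the ligand that mediates much of the action of growth hormone, is on chromosome 10 (87858265 to 87937047, GRCm38.p6) and was followed through probe set 1434413_at, the 1 of its 4 with the highest mean. Its level was 9.59, 9.82, 9.40 and 10.10 in the 4 cardiomyocytes and 9.17, 8.17 and 6.54 in the 3 fibroblasts. The fibroControl cells read 3.95, 4.78 and 6.04, and the 5 fibroTIPeR cells read 4.40, 7.10, 6.43, 9.78 and 8.81. Every cardiomyocyte was above every fibroblast and every fibroblast above every fibroControl cell, while the fibroTIPeR cells spread across both ranges.

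Astrocytes given cardiomyocyte RNA read 5.65 to 9.31 on the same Igf1 probe set, with a median of 8.89, and the mock-transfected astrocytes read 8.31 and 5.32. Among the 4 fibroblast and cardiomyocyte groups the order of the mean Igf1 levels was cardiomyocyte, fibroblast, fibroTIPeR and fibroControl, and no neighbours in that order differed past the threshold. The level of Igf1 1434413_at moved against the 18S level over the 15 cells, with r = -0.84, and Igf1r 1452108_at had r = -0.70. These 15 points share the normalization and the group structure. The other 3 Igf1 probe sets had lower signal, and pairs of the 4 probe sets correlated at 0.18 to 0.77 over the 23 cells. The means in cardiomyocytes and fibroblasts were 5.36 and 6.64 on 1452014_a_at, 4.95 and 5.27 on 1437401_at, and 4.61 and 4.42 on 1419519_at. On each of these the fibroControl mean was below the fibroblast mean.

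Igf2, the ligand of fetal growth and an imprinted gene expressed from the paternal allele in most tissues, is on chromosome 7 (142650768 to 142666816). Its probe set with the highest mean, 1448152_at, read 7.79, 9.62 and 12.21 in fibroControl cells and 6.80, 5.95 and 5.38 in fibroblasts. It read 5.32, 7.50, 8.21, 6.99 and 5.58 in fibroTIPeR cells and 5.46, 6.14, 8.40 and 9.17 in cardiomyocytes. The fibroControl range lay above the fibroblast range and overlapped those of fibroTIPeR cells and cardiomyocytes.

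The second Igf2 probe set, 1415931_at, ran the other way. It read 3.68, 3.42 and 4.12 in fibroControl cells, below the 5.93, 7.35 and 7.85 of the fibroblasts. Over 23 cells the Igf2 probe sets correlated at r = -0.39, so no direction of Igf2 as a gene can be read from them. In astrocytes 1448152_at read 7.75 and 10.55 in the mock-transfected cells and 5.69 to 7.18, with a median of 6.75, in the cells given cardiomyocyte RNA, with no overlap.

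Igf1r, the receptor for both ligands, is on chromosome 7 (67952257 to 68233668). On its probe set with the highest mean, 1452108_at, the cells ran from 8.52 to 11.09, and both ends were fibroblasts. The cardiomyocytes read 10.58, 9.82, 10.98 and 10.70, the fibroblasts 10.81, 11.09 and 8.52, and the fibroControl cells 8.77, 9.53 and 8.52. The fibroTIPeR cells read 8.82, 10.71, 8.96, 9.99 and 10.80, and the astrocytes between 9.49 and 10.51. Among the fibroblast and cardiomyocyte groups the ranges overlapped, except that fibroControl cells lay below cardiomyocytes, a pair that was not among the comparisons tested. On Igf1r 1452982_at the fibroControl cells, at 6.88, 7.40 and 7.55, lay below the fibroblasts, at 10.29, 10.28 and 8.92. The Igf1r means stood in the same order as those of Igf1, with no neighbours past the threshold. The 10 pairs of Igf1r probe sets correlated at -0.35 to 0.57.

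Igfbp4, a binding protein that inhibits ligand action and is cleaved by the protease PAPP-A, is on chromosome 11 (99040005 to 99052655) and gave the widest spread between groups. On the probe set with the highest mean, 1423757_x_at, the fibroControl cells read 8.77, 11.58 and 12.71 and the fibroblasts 7.39, 7.07 and 5.90. The fibroTIPeR cells read 7.05, 5.70, 7.26, 6.51 and 5.99, and the cardiomyocytes 7.50, 4.81, 6.60 and 5.47. Each fibroControl cell was above all 12 other cells of the fibroblast and cardiomyocyte arrays, and the ranges of those other 3 groups overlapped. On this probe set the means fell in the order fibroControl, fibroblast, fibroTIPeR and cardiomyocyte, and only the first step was past the threshold. The order below fibroControl was not shared. Each other Igfbp4 probe set had a fibroTIPeR mean above the fibroblast mean, from 5.22 against 5.20 on 1421991_a_at to 5.77 against 4.68 on 1437405_a_at.

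On the same Igfbp4 probe set the astroTIPeR cells read 5.99 to 9.07, with a median of 8.09, and the astroControl cells 9.20 and 6.56.

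The Igfbp4 probe set 1437405_a_at set the fibroControl cells further apart, at 9.72, 11.96 and 13.22 against 4.99, 4.61 and 4.43 in fibroblasts. Its fibroTIPeR levels were 8.07, 3.98, 7.27, 4.74 and 4.81, and its cardiomyocyte levels 6.01, 3.64, 5.18 and 4.53. Astrocytes given cardiomyocyte RNA read 6.80, 6.15, 9.76, 9.57, 7.73 and 8.26, within or near the 9.41 and 5.93 of the mock-transfected astrocytes. Of the 6 Igfbp4 probe sets, 1421991_a_at stood alone, with r between -0.17 and 0.03 with the others, whereas the other 5 correlated with each other at 0.66 to 0.93 over 23 cells. Affymetrix names ending in _s_at or _x_at mark probe sets that may also pair with other transcripts, which applies to 3 of these 6. The same limit applies to 1458268_s_at, the probe set used to test Igfbp3, and to Igfbp5 1452114_s_at.

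**Figure D1:**
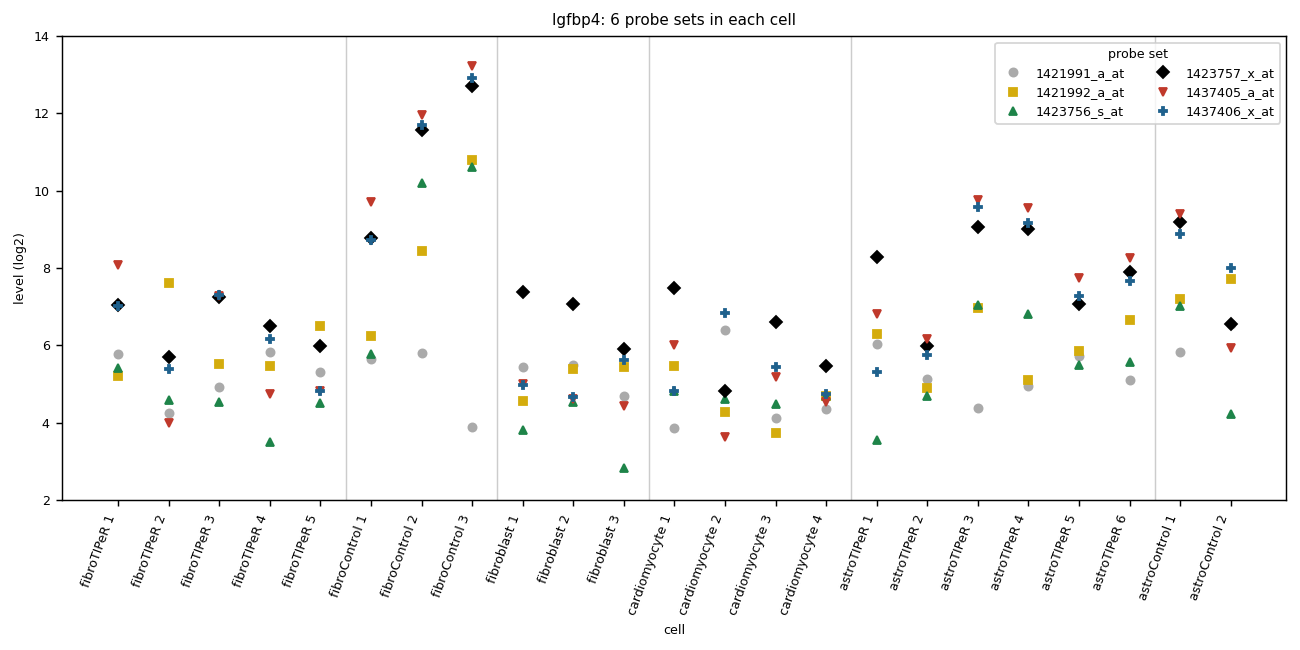
Level (log2) of the 6 Igfbp4 probe sets, 1 symbol per probe set, in each of the 23 cells, which are ordered along the horizontal axis by group and replicate. All probe sets but 1421991_a_at are highest in fibroControl 3, where 1437405_a_at reads 13.22, while the fibroblasts lie between 2.83 and 7.39.

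Igfbp7, a secreted protein related to the binding proteins with lower affinity for the ligands, is on chromosome 5 (77349240 to 77408045). On 1437804_at the fibroblasts read 9.04, 9.50 and 9.52 and the cardiomyocytes 9.44, 8.40, 9.30 and 8.74. The fibroControl cells read 9.37, 12.42 and 9.73, and the fibroTIPeR cells 11.84, 9.78, 7.60, 9.74 and 10.53, so that 1 fibroTIPeR cell lay below all untransfected cells, while 4 fibroTIPeR and 2 fibroControl cells lay above the highest of them. The mock-transfected astrocytes read 10.88 and 13.15 against 8.61 to 11.37, with a median of 9.26, in astroTIPeR cells.

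A second Igfbp7 probe set, 1423584_at, split the transfected fibroblasts. It read 11.67, 4.79, 11.15, 5.55 and 7.06 in fibroTIPeR cells, 4.95, 10.90 and 10.01 in fibroControl cells, 4.01, 4.04 and 6.92 in fibroblasts, and 3.40, 4.09, 4.74 and 4.65 in cardiomyocytes. The 4 cells above 10 were fibroTIPeR 1 and 3 and fibroControl 2 and 3, all transfected. Its correlation with the 18S level over the 15 cells was r = 0.75, beside 0.20 on 1437804_at and -0.49 on 1423585_at. Igfbp4 1437405_a_at had r = 0.65, the largest among the Igfbp4 probe sets, and 1423757_x_at had 0.46. The third Igfbp7 probe set, 1423585_at, was lower in fibroControl cells, at 3.22, 2.31 and 3.56, than in fibroblasts, at 5.06, 6.54 and 6.43. The 3 pairs of Igfbp7 probe sets correlated at -0.41 to 0.30.

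**Figure D2:**
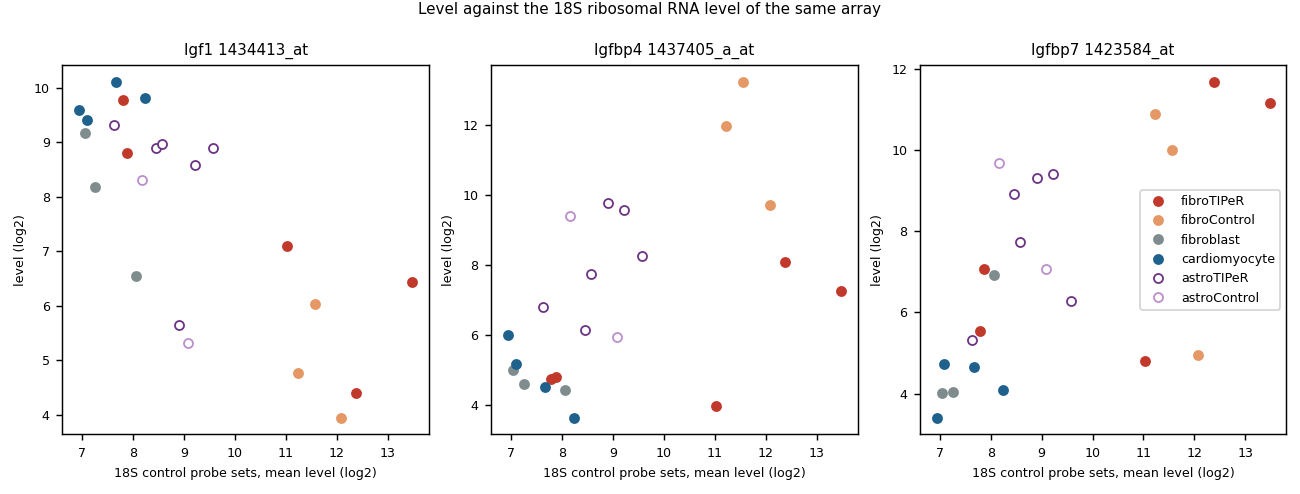
Level (log2) of Igf1 1434413_at, Igfbp4 1437405_a_at and Igfbp7 1423584_at against the mean 18S level (log2) of the same array, 1 point per cell, with open points for astrocytes. Over the 15 fibroblast and cardiomyocyte cells (filled) r was -0.84, 0.65 and 0.75, and the fibroControl cells lie at 18S levels of 11.2 to 12.1. For each gene the probe set with the r of largest size was chosen for display. The probe sets used in the tests had r = 0.46 for Igfbp4 (1423757_x_at) and 0.20 for Igfbp7 (1437804_at).

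Igfbp5, a binding protein that also attaches to extracellular matrix, is on chromosome 1 (72858065 to 72874865) and was read at the top of the scale on 1422313_a_at. All 23 cells lay between 15.05 and 15.46, and the probe set ranked between 4 and 17 from the top of the 45101 on every array, below the highest normalized value of 15.82. A level this close to the top leaves little room for a difference to show. The other Igfbp5 probe set, 1452114_s_at, ran from 3.22 to 8.36 and correlated with the first at r = -0.06 over 23 cells.

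Igfbp3, the main carrier of the ligands in blood, is on chromosome 11 (7206086 to 7215498). Its probe set 1458268_s_at read 5.06, 6.16 and 5.94 in fibroblasts, 3.68, 3.96 and 4.37 in fibroControl cells, and 4.22, 4.26, 4.27, 4.63 and 4.98 in fibroTIPeR cells. The cardiomyocytes read 5.10, 3.72, 3.51 and 4.40. The fibroblasts were above every transfected fibroblast and overlapped the cardiomyocytes through 1 cell, cardiomyocyte 1. The astroTIPeR cells read 3.30 to 5.06, with a median of 4.07, and the astroControl cells 4.43 and 5.46. The mean of Igfbp3 over all cells, 4.46, was below the median of 5.71 over all genes, as was that of Igfbp2, 4.30. The other Igfbp3 probe set, 1423062_at, averaged 3.41 in fibroblasts, 3.94 in fibroControl cells, 2.83 in fibroTIPeR cells and 4.07 in cardiomyocytes. It correlated with 1458268_s_at at r = 0.07 over 23 cells, and did not share the lower means of fibroControl cells and cardiomyocytes.

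Igfbp6, a binding protein that prefers IGF2, is on chromosome 15 (102144186 to 102149512). It read 6.90, 6.60, 7.64, 7.09 and 4.26 in fibroTIPeR cells and 3.82, 3.81 and 5.07 in fibroControl cells, overlapping through fibroTIPeR 5. The fibroblasts read 3.89, 4.30 and 8.35, a spread as wide as that between the other groups, and the cardiomyocytes 5.46, 5.38, 3.87 and 3.78. The astroTIPeR cells, at 4.97 to 7.98 with a median of 6.45, overlapped the astroControl cells, at 8.64 and 5.28.

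Igfbp2, a binding protein known from the developing brain and from glia, is on chromosome 1 (72824480 to 72852474). It read 6.82 and 6.37 in the mock-transfected astrocytes and 2.72 to 5.77, with a median of 4.53, in the astrocytes given cardiomyocyte RNA. These ranges did not overlap. The other 15 cells read between 2.85 and 5.10, and none of those 4 groups stood apart.

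**Figure D3:**
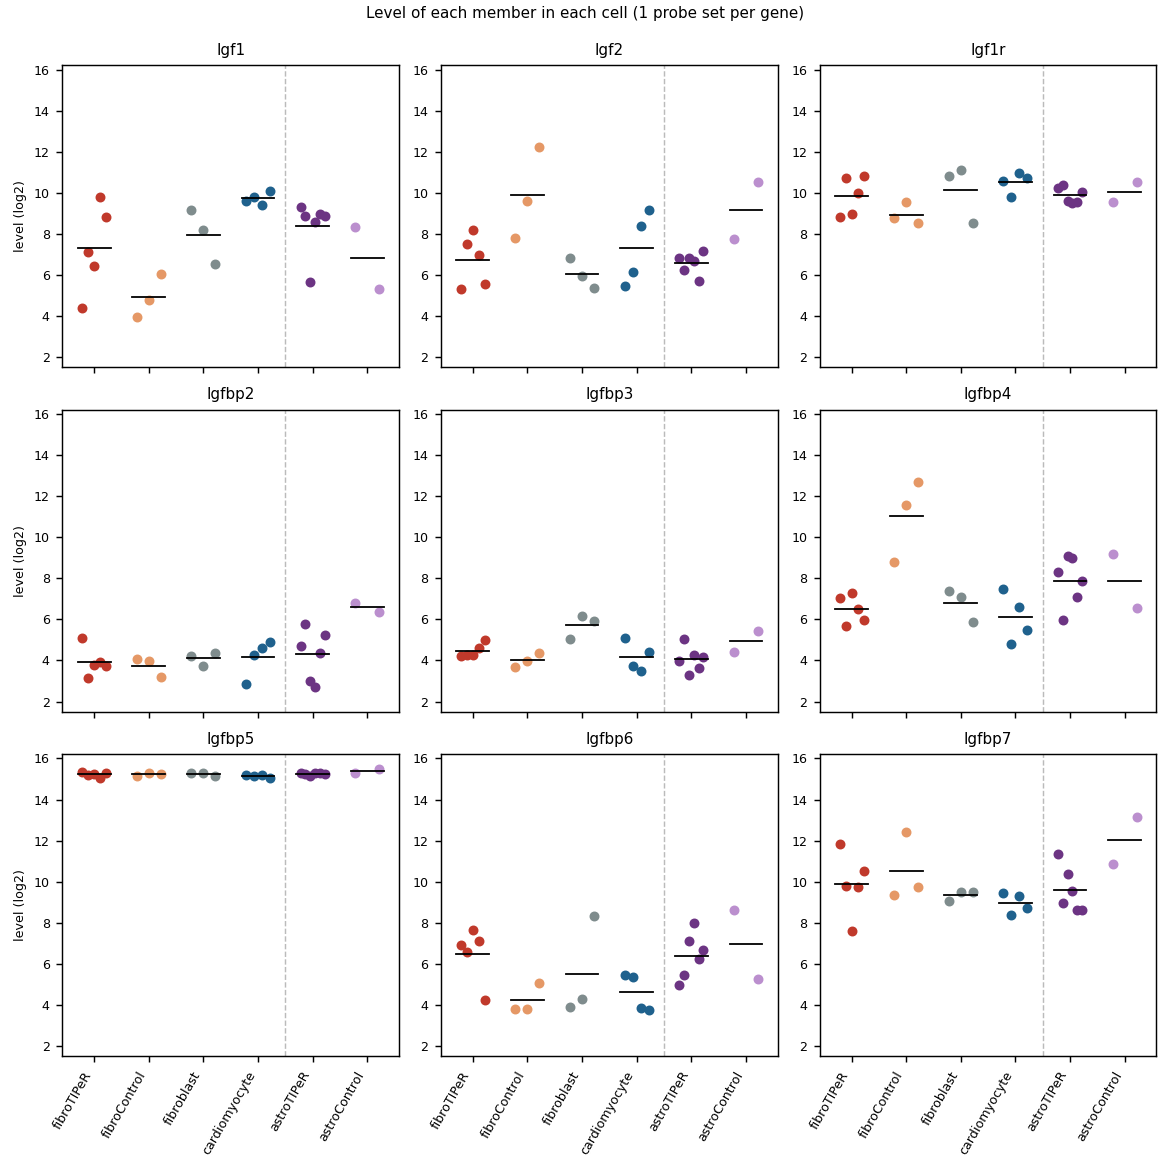
Level (log2) of each member on the probe set used in the tests, 1 point per cell, with a line at the group mean, and with a dashed line between the fibroblast and cardiomyocyte arrays and the astrocyte arrays. The 3 fibroControl cells are highest for Igfbp4 among the fibroblast and cardiomyocyte arrays, and Igfbp5 lies at 15.05 to 15.46 in all cells.

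The comparison of fibroControl cells with untransfected fibroblasts asks what transfection with the same cell type's own RNA does. Igfbp4 was higher in the fibroControl cells, at 11.02 ± 2.03 (SD, n = 3) against 6.78 ± 0.78 (SD, n = 3), a difference of 4.24 ± 1.05 (SE) on the log2 scale (95% interval 2.08 to 6.40). It was the only 1 of the 9 members that passed limma's moderated test across all 18193 genes (Benjamini-Hochberg adjusted p = 0.0401), where 1.56% of all genes passed. The Igfbp4 call did not hold in every fit. The difference was 3.40 to 5.36 with each of the 6 cells left out, and it passed without fibroControl 1 (adjusted p = 0.0282) but not without fibroControl 2 (0.106), fibroControl 3 (0.135), fibroblast 1 (0.0629), fibroblast 2 (0.105) or fibroblast 3 (0.109). On the values as deposited the limma difference was 3.87 with an adjusted p of 0.0751, and with the 18S level as a covariate it was 4.28 with an adjusted p of 0.428. The 18S levels of fibroControl cells, 11.23 to 12.08, and of fibroblasts, 7.05 to 8.06, did not overlap. In every covariate fit of this comparison, 18S level and transfection group therefore cannot be told apart. The fibroblast markers averaged 7.89, 10.1 and 9.97 in fibroControl cells 1 to 3 and 7.99 to 9.91 in fibroblasts, and their part in the Igfbp4 difference was not tested.

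Tested as separate probe sets, in a limma fit of all 34945 probe sets with 1 symbol, 6 of the 26 member probe sets passed in this comparison, against 1.37% of all. Igfbp4 1437405_a_at gave a difference of 6.96 ± 1.18 (SE, adjusted p = 0.0122), 1437406_x_at gave 6.03 (0.0143), 1423756_s_at gave 5.14 (0.0160) and 1423757_x_at gave 4.24 (0.0416). The remaining Igfbp4 probe sets, 1421992_a_at at 3.36 (0.0608) and 1421991_a_at at -0.09 (0.967), did not pass. Igfbp4 1437405_a_at passed with each of the 6 cells left out, at 6.16 to 7.91 and with a highest adjusted p of 0.0447, in fits chosen after the levels had been seen. With the 18S covariate 0 of the 6 Igfbp4 probe sets passed. Igfbp7 1423585_at (-2.98 ± 0.72 SE, adjusted p = 0.0401) and Igf2 1415931_at (-3.30 ± 0.85 SE, adjusted p = 0.0483) were lower in fibroControl cells, each against the sign of the probe set used for its gene. The means of Igfbp7 1423585_at and Igf2 1415931_at over all cells, 4.33 and 4.77, were below the median of 5.71 over all genes. The 26 probe sets share their genes, so the 6 that passed stand for 3 genes.

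The ligands did not pass in the same comparison. Igf2 on 1448152_at gave 3.83 ± 1.12 (SE, limma adjusted p = 0.0734), Igf1 gave -3.04 ± 1.18 (SE, adjusted p = 0.175), and Igfbp3 gave -1.72 ± 0.55 (SE, adjusted p = 0.0993). With the 18S covariate the Igf1 difference was -0.01 (adjusted p = 0.998), that of Igf2 was 3.21 (0.53) and that of Igfbp3 was -1.34 (0.602). The Igf1r difference, -1.20 (adjusted p = 0.361), was 0.07 (0.984) with the covariate, and that of Igfbp6, -1.28 (0.563), was -2.96 (0.527). For Igf1, Igf2, Igfbp3 and Igfbp4 the groups did not overlap, which makes 4 of 9 members against 23.4% of all genes, and the same 4 had an unadjusted p under 0.05, against 17.3% of all genes. The median difference over the 9 members was -0.36, with 3 positive, beside a median of 0.03 over all genes.

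**Figure D4:**
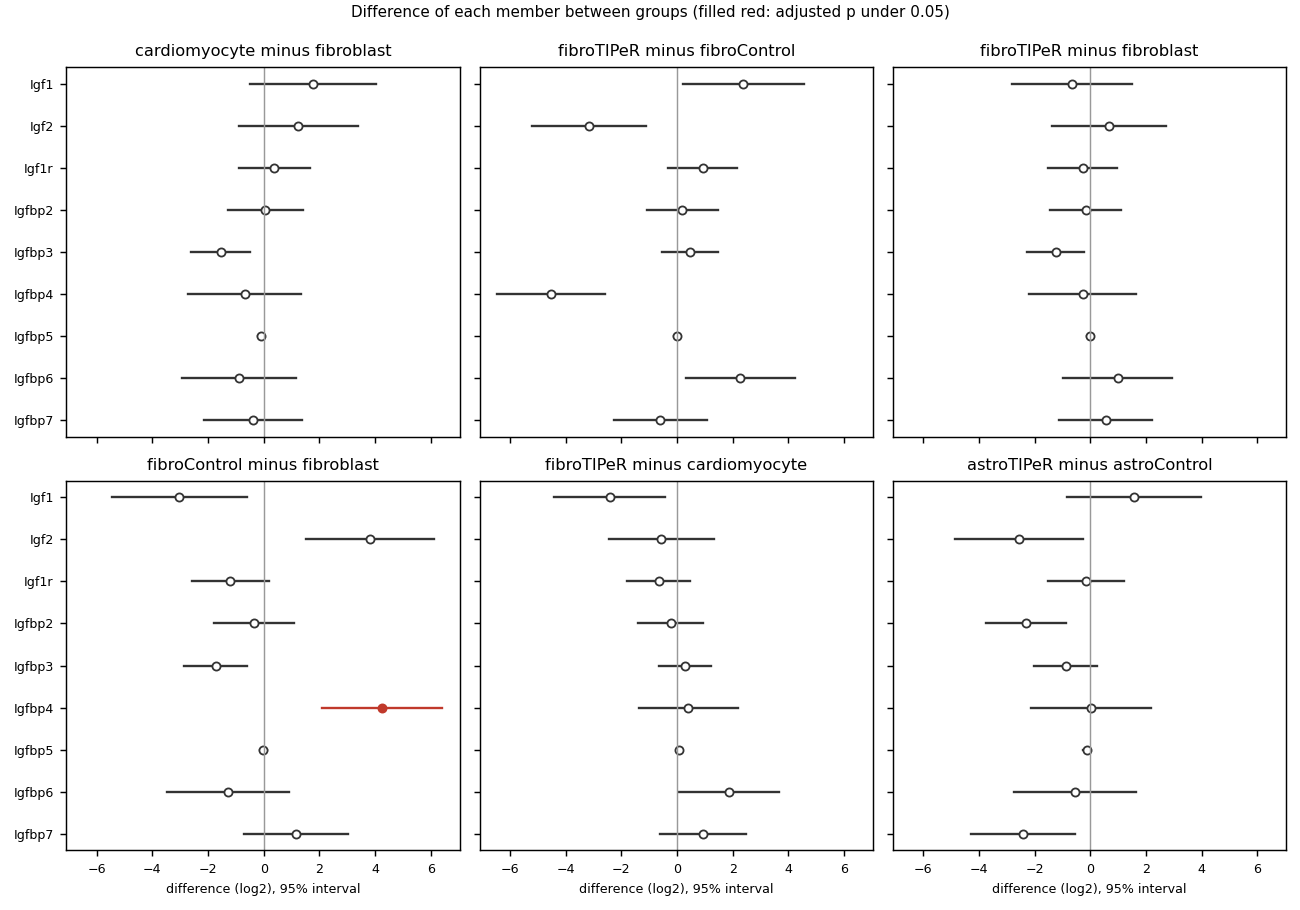
Difference in level (log2, first group minus second) of each member in the 6 comparisons of groups, with 95% intervals from limma, and red where the adjusted p is under 0.05. Igfbp4 in fibroControl cells minus fibroblasts, at 4.24, is the only filled point, and its mirror in fibroTIPeR minus fibroControl, at -4.52, shares the fibroControl cells.

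The comparison of fibroTIPeR with fibroControl cells sets cardiomyocyte RNA against fibroblast RNA, since both groups are transfected fibroblasts. The source of the RNA was not the only difference. The 18S levels of fibroTIPeR 4 and 5, 7.80 and 7.88, lay below the 11.23 to 12.08 of fibroControl cells, and the labels name no shared culture. No member passed limma's test (0 of 9, against 0.0055% of all genes). Igfbp4 had the smallest p, at 6.50 ± 0.67 (SD, n = 5) in fibroTIPeR cells against 11.02 ± 2.03 (SD, n = 3), a difference of -4.52 ± 0.94 (SE, 95% interval -6.45 to -2.59, adjusted p = 0.0879). All 5 fibroTIPeR cells were below all 3 fibroControl cells, which held for 1 of 9 members and for 3% of all genes in either direction. The call depended on single cells, since without fibroControl 1 the difference was -5.65 with an adjusted p of 0.0217. With the mean of all Igfbp4 probe sets it was -3.67 (adjusted p = 0.0281), and with each of the 8 cells left out it ranged from -5.65 to -3.68.

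Of the 5 fibroTIPeR cells, numbers 1 to 3 had the high 18S levels, near those of the fibroControl cells. The Igfbp4 difference from fibroControl was -4.35 (limma adjusted p = 0.258) with fibroTIPeR 1 to 3 alone and -4.77 (0.0519) with fibroTIPeR 4 and 5 alone. Both values are for the probe set used in the tests alone, where they were of similar size. With the 18S covariate the Igfbp4 difference on that probe set was -4.53 (adjusted p = 0.120). Tested as separate probe sets, 0 of 6 Igfbp4 probe sets passed with fibroTIPeR 1 to 3 alone and 2 of 6 with fibroTIPeR 4 and 5 alone. With all 5 fibroTIPeR cells, Igf2 gave -3.15 (adjusted p = 0.468) and Igfbp6 2.27 (0.673). Igf1 gave 2.38 (0.704), and 1.58 (0.763) with the covariate. The Igf1 difference was 1.06 (adjusted p = 0.905) with fibroTIPeR 1 to 3 alone and 4.37 (0.0555) with fibroTIPeR 4 and 5 alone. With Igfbp4 these made 4 of 9 members with an unadjusted p under 0.05, against 6.62% of all genes. This comparison and the previous one share the fibroControl cells, so that opposite signs in them are not separate observations.

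Against untransfected fibroblasts the fibroTIPeR cells showed no member past the threshold (0 of 9 by limma, against 0.055% of all genes, and 1 with an unadjusted p under 0.05, against 10.1%). The groups did not overlap for 1 member, Igfbp3, against 5.01% of all genes. It had the smallest p, at 4.47 ± 0.33 (SD, n = 5) against 5.72 ± 0.58 (SD, n = 3), a difference of -1.25 ± 0.49 (SE, adjusted p = 0.401). Igfbp4 on 1423757_x_at gave -0.28 (95% interval -2.21 to 1.65), where fibroControl cells gave 4.24 (2.08 to 6.40) against the same fibroblasts. In the direct comparison of the transfected groups, given above, Igfbp4 did not pass. On each other Igfbp4 probe set the fibroTIPeR mean was above the fibroblast mean. Igf1 gave -0.66 (-2.82 to 1.51) and Igf1r -0.28 (-1.51 to 0.95), and neither direction held: with the 18S covariate they were 1.56 and 0.65, with fibroTIPeR 1 to 3 alone -1.98 and -0.64, and with fibroTIPeR 4 and 5 alone 1.33 and 0.26.

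The comparison of cardiomyocytes with fibroblasts, the donor and recipient cell types, also gave 0 of 9 members by limma, against 0.225% of all genes. With an unadjusted p under 0.05 there was 1, Igfbp3, against 9.72% of all genes. It read 4.18 ± 0.72 (SD, n = 4) in cardiomyocytes and 5.72 ± 0.58 (SD, n = 3) in fibroblasts, a difference of -1.54 ± 0.52 (SE, adjusted p = 0.305), which passed with array weights (-1.78, adjusted p = 0.0143). On the other Igfbp3 probe set, 1423062_at, the means were 4.07 in cardiomyocytes and 3.41 in fibroblasts, the other way. Igf1 was the only member whose groups did not overlap (12.6% of all genes), at 9.73 ± 0.30 (SD, n = 4) against 7.96 ± 1.33 (SD, n = 3) and with an adjusted p of 0.617. On Igf1 1452014_a_at and 1437401_at the cardiomyocyte mean was below the fibroblast mean, and on 1419519_at it was above. Igfbp4 gave -0.69 with a 95% interval of -2.71 to 1.33. On Igfbp4 1423756_s_at, 1437405_a_at and 1437406_x_at the cardiomyocyte mean was above the fibroblast mean, and on the rest it was below.

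Between fibroTIPeR cells and the donor cardiomyocytes limma again called 0 of 9 members, against 0.561% of all genes, 2 had an unadjusted p under 0.05, against 14.3%, and no member's groups were apart, against 3.9%. Igf1 had the smallest p, at 7.30 ± 2.10 (SD, n = 5) against 9.73 ± 0.30 (SD, n = 4), a difference of -2.42 ± 0.97 (SE, adjusted p = 0.271). With fibroTIPeR 1 to 3 alone, the cells with high 18S levels, the Igf1 difference was -3.75 and passed (adjusted p = 0.0265). The Igf1 level of fibroTIPeR 4, 9.78, lay within the cardiomyocyte range of 9.40 to 10.10. That of fibroTIPeR 5, 8.81, lay below it and within the fibroblast range of 6.54 to 9.17. With the 18S covariate the Igf1 difference was -0.23. Igfbp6 gave 1.88 ± 0.88 (SE, adjusted p = 0.331), and 0.66 with the covariate.

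In astrocytes the comparison of cardiomyocyte RNA with mock transfection called 0 of 9 members by limma, against 0.0495% of all genes. An unadjusted p under 0.05 was reached by 4 members, against 9.44% of all genes. Igfbp2 had the smallest p, at 4.29 ± 1.22 (SD, n = 6) against 6.60 ± 0.32 (SD, n = 2), a difference of -2.30 ± 0.70 (SE, adjusted p = 0.206). Igf2 gave -2.57 (adjusted p = 0.449), Igfbp7 -2.43 (0.331) and Igfbp5 -0.13 (0.496). The groups did not overlap for Igfbp2 and Igf2, 2 of 9 members against 11.8% of all genes. Over the 26 member probe sets, 3 were lower without overlap, against 5.08% of all, and 3 were higher, against 6.16%. The higher ones were Igfbp7 1423585_at (means of 3.88 in astroTIPeR and 2.24 in astroControl cells), Igfbp5 1452114_s_at (6.81 and 5.48) and Igf1r 1452982_at (8.89 and 6.17). Igf2 1415931_at averaged 3.47 in astroTIPeR and 3.67 in astroControl cells. The Gapdh 3′ minus 5′ probe set difference, a sign of RNA length, also separated these groups, at 1.51 and 2.63 in astroControl cells against 2.94 to 5.05 in astroTIPeR cells, and its part in these differences was not tested. Igfbp3 gave -0.88 (adjusted p = 0.671) and Igfbp6 -0.56 (0.938).

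The transfer effect of cardiomyocyte RNA in fibroblasts minus that in astrocytes was tested as a difference of its own. Igfbp4 had the smallest p, at -4.53 ± 1.41 (SE, 95% interval -7.43 to -1.64, limma adjusted p = 0.474). Its effect in astrocytes was 0.01 (95% interval -2.15 to 2.17), and both values are for the probe set used in the tests alone. Other Igfbp4 probe sets differed in astrocytes. The astroTIPeR and astroControl means were 5.96 and 7.45 on 1421992_a_at, where the groups did not overlap. They were 7.46 and 8.45 on 1437406_x_at, and 5.22 and 6.19 on 1421991_a_at. On 1423756_s_at they were 5.53 and 5.62, and on 1437405_a_at they ran the other way, at 8.05 and 7.67. No member passed and 0% of all genes did, while 2 members had an unadjusted p under 0.05 (7.65% of all genes). The controls of the recipient types were treated differently, with fibroblast RNA in one and none in the other. Recipient, control and array set therefore cannot be told apart in this difference of effects.

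Across cells the members did not move as a block. Over the 15 fibroblast and cardiomyocyte cells the 36 pairs of members correlated at -0.57 to 0.74, with Igf1 and Igf1r the highest and Igf2 and Igfbp4 next at 0.69, while Igf1 and Igfbp4 were the lowest. Over the 8 astrocytes those 3 pairs gave -0.14, -0.15 and -0.01. All cells of a set share the normalization, and the r values carry no test. The genes most like Igfbp4 over the 15 cells were Smpd2 (r = 0.91), Mmp2 (0.90) and Ctr9 (0.89), and those most like Igf1 were Pbsn (0.97), Crkl (0.96) and Rnf227 (0.95). Igf2 was most like 8030474K03Rik (0.89), Usp18 (0.89) and Chrnd (0.87), and Igf1r most like Utp14b, Mir425 and Anxa6 (0.91 each).

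**Figure D5:**
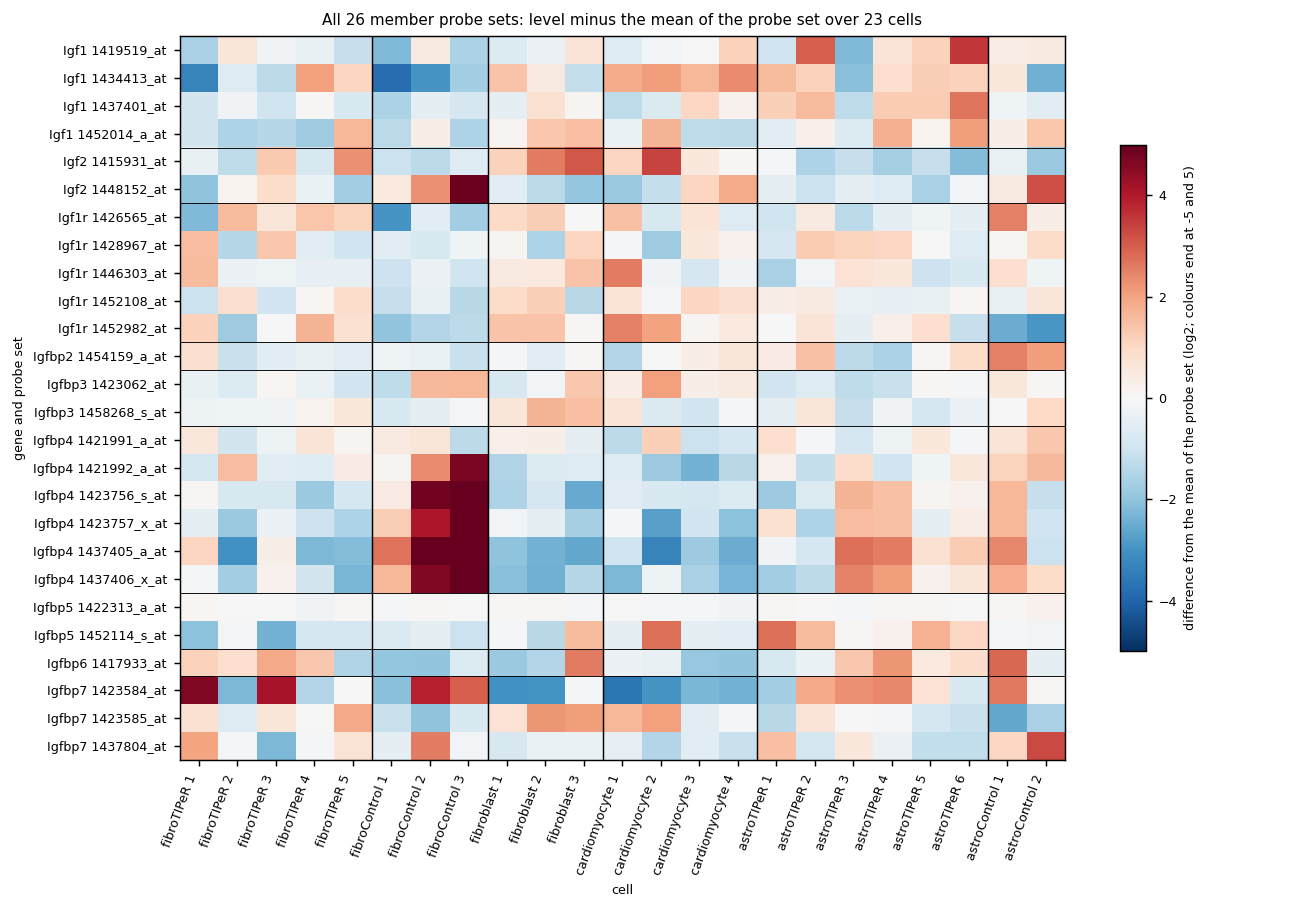
Level of each of the 26 member probe sets minus its mean over 23 cells (log2, colours ending at -5 and 5), with probe sets as rows grouped by gene and cells as columns grouped by label. The 5 Igfbp4 probe sets other than 1421991_a_at share high values in fibroControl cells 2 and 3, while the Igf2 pair and the Igfbp7 probe sets differ among themselves.

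Of 57 other genes listed for the pathway (binding, receptor and protease genes, genes of Igf2 RNA and imprinted loci, and signalling genes downstream of the receptor), 48 had a probe set with 1 symbol. In fibroControl cells against fibroblasts 1 rose, 1 fell and 46 did not pass limma's test, so that 2 of 48 passed where 1.56% of all genes did. An unadjusted p under 0.05 was reached by 13, against 17.3% of all genes, with a median difference of 0.13 beside 0.03 over all genes. The gene that fell was Igfbp1, a binding protein best known as a product of liver, at 6.04, 6.27 and 5.61 in fibroControl cells against 10.92, 10.93 and 10.03 in fibroblasts (-4.65 ± 1.11 SE, adjusted p = 0.0333). Its levels in fibroTIPeR cells 1 to 5 were 4.85, 7.03, 5.25, 8.96 and 9.65, so that the cells with high 18S levels were low. With the 18S level as a covariate the Igfbp1 difference was -1.18 (adjusted p = 0.759), and it passed with none of the 6 cells left out (adjusted p 0.0657 to 0.116). The gene that rose was Grb2, an adaptor that links receptors to RAS, at 14.38, 14.28 and 14.34 against 13.89, 13.87 and 13.89 (0.45 ± 0.10 SE, adjusted p = 0.0193). The Grb2 difference with the 18S covariate was 0.17 and did not pass, and without the trend in eBayes its adjusted p was 0.454. It did not pass without fibroControl 1 (0.0728), fibroblast 2 (0.0711) or fibroblast 3 (0.0574).

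In fibroTIPeR cells against cardiomyocytes 1 of the 48 pathway genes rose and 47 did not pass, against 0.561% of all genes called, and 9 had an unadjusted p under 0.05, against 14.3%. It was Grb10, an adaptor that restrains insulin and IGF1 receptor signalling. Its probe set 1425458_a_at read 12.56, 10.34, 12.43, 12.22 and 8.48 in fibroTIPeR cells and 7.35, 7.44, 7.82 and 8.85 in cardiomyocytes, overlapping through fibroTIPeR 5. The difference was 3.34 ± 0.73 (SE, limma adjusted p = 0.0267). It was 2.29 (adjusted p = 0.896) with the 18S covariate. The other Grb10 probe sets gave -0.56 and 0.14. The fibroblasts read 10.35, 11.12 and 12.87 on 1425458_a_at, and the fibroControl cells 12.21, 10.86 and 11.63. The Grb10 call was lost without any 1 of fibroTIPeR 1 (adjusted p = 0.0979), fibroTIPeR 3 (0.124), cardiomyocyte 1 (0.0940), cardiomyocyte 2 (0.0987) and cardiomyocyte 3 (0.0834), and with the mean of its probe sets the difference was 0.98 (0.332). In the other 4 comparisons of groups 0 of 48 passed limma's test, and the numbers at an unadjusted p under 0.05 were 9 for cardiomyocytes against fibroblasts (9.72% of all genes), 6 for fibroTIPeR against fibroControl cells (6.62%), 6 for fibroTIPeR cells against fibroblasts (10.1%) and 2 for the astrocyte groups (9.44%).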

How the data were processed

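The authors deposited 1 table of log2 expression values, as judged from their range, for 45101 probe sets in 23 cells. Their summarization, normalization and software were not given in the sources used here. All columns were then quantile normalized together, and 64 control probe sets took no part in the fits. Of the rest, 34945 carried 1 symbol, 932 several and 9160 were not listed in the platform annotation. For each gene the probe set with the highest mean over all cells was tested. No detection calls were used, no background level was set, and no filter removed a member from the tests.

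Cells were grouped by their labels. Tests used lmFit with 6 group means and eBayes with a trend, in limma 3.58.1 (statmod 1.5.0) under R 4.3.3, two-sided, with Benjamini-Hochberg adjustment over all genes in each comparison, called at 0.05, and the steps were tested on simulated data. All members are named in every group, with full statistics for those past the threshold or, where none passed, for the smallest p. Pathway genes are named where past the threshold, and the 3 genes of highest Pearson r were taken as most like a member. Promoters came from RefSeq tables of GRCm38.p6, matched by symbol for all 9 members. Figures used matplotlib 3.10.9 in Python 3.11.15. The members, lists and alternatives were chosen with earlier results of these data known. The alternatives were other normalizations, a filter on low genes, other probe set rules, other eBayes settings, array weights, the compared groups only, 18S as a covariate, the replicate number as a term, subsets of fibroTIPeR cells and each cell left out. No 2 arrays held identical values, and correlations between arrays ran from 0.546 to 0.918.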

Additional observations from a re-analysis of the deposited data

Results flagged for a closer look

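A cell stood apart from the rest of its group in 7 of the 78 sets of 4 to 10 cells, by the gap of its level to the nearest other cell as a share of the range. Chance sets apart about 1 in 20 groups, or 3.9 of 78. AstroTIPeR 3 was low on Igf1 1434413_at, at 5.65 against 8.57 to 9.31 in the other cells, and on Igf1 1437401_at, at 3.87 against 6.34 to 7.82. FibroTIPeR 5 was high on Igf1 1452014_a_at, at 7.29 against 3.86 to 4.71. FibroTIPeR 1 was low on Igf1r 1426565_at, at 6.04 against 8.84 to 9.84, and high on Igf1r 1446303_at, at 5.84 against 3.85 to 4.05. Cardiomyocyte 2 was high on Igfbp3 1423062_at, at 5.33 against 3.58 to 3.73, and on Igfbp5 1452114_s_at, at 8.36 against 5.03 to 5.10.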

How the results depend on the processing

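The 1 member difference that passed as reported, Igfbp4 in fibroControl cells against fibroblasts, kept its sign in all 18 alternatives. Of 1372 member differences under alternatives, 73 had the other sign than the reported value, with neither past the threshold. Among them were 2 differences that passed with array weights: Igf1r in fibroControl cells against fibroblasts, at -1.20 as reported and 0.07 with the 18S covariate, and Igfbp5 in cardiomyocytes against fibroblasts, at -0.09 as reported and 0.08 with the mean of all probe sets. In fibroControl cells against fibroblasts, where 1 member passed, 0 passed on the values as deposited, after median centring, with quantile normalization within each array set, with the compared groups only and with the 18S covariate, 3 passed with every probe set tested (Igf2, Igfbp4 and Igfbp7) and 5 with array weights, and 0 to 1 passed with each cell left out. In fibroTIPeR against fibroControl cells, where 0 passed, 1 passed with the mean of all probe sets and 0 to 1 with each cell left out. Array weights gave 2 members (Igfbp3 and Igfbp5) in cardiomyocytes against fibroblasts, and fibroTIPeR 1 to 3 alone gave 1 (Igf1) against cardiomyocytes. Of the 6 Igfbp4 probe sets, 4 passed in fibroControl cells against fibroblasts, 1 with the compared groups only, 0 with the 18S covariate and 1 to 5 with each cell left out. Against fibroControl cells, 0 of 6 passed in fibroTIPeR cells, 1 with array weights, 2 with fibroTIPeR 4 and 5 alone and 0 to 4 with each cell left out. Over all genes the 283 calls in fibroControl cells against fibroblasts became 135 as deposited, 143 after median centring, 156 within array sets, 173 above the median level, 86 with the compared groups only, 0 with the 18S covariate, 1890 with array weights and 42 to 144 with each cell left out. Calls over all genes ranged from 2 to 1130 about 41 in cardiomyocytes against fibroblasts, 0 to 161 about 1 in fibroTIPeR against fibroControl cells, 0 to 610 about 10 against fibroblasts, 9 to 1056 about 102 against cardiomyocytes, and 1 to 543 about 9 in astrocytes, the last without astroControl 1. The cause of these changes was not tested. Signal near the top (Igfbp5) or below the median gene level (Igfbp2, Igfbp3, Igfbp7 1423585_at and Igf2 1415931_at among others) limits what a difference can show.

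The replicate numbers were not used as pairs in the main fit, since the labels do not say that a number marks a shared culture, animal or day. Same-numbered cells deviated from their group means with r between -0.34 and 0.29, and 5 of 18 pairs were over 0.1. With the replicate block the Igfbp4 difference in fibroControl cells against fibroblasts was 4.24 (limma adjusted p = 0.0562), 0 members and 163 genes passed there, and the other comparisons kept 0 members.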
